A study of Zea mays with 4 samples.

Results

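The regions described here are peaks of P1 chromatin immunoprecipitation in the middle of maize chromosomes 7 and 10, that is, peaks whose midpoint lay between 25% and 75% of the chromosome's span of peak positions. They numbered 3311 of the 35143 peaks in all, 1904 of 20424 in list 1 and 1407 of 14719 in list 2. Chromosome 7 held 995 of them in list 1 and 734 in list 2, and chromosome 10 held 909 in list 1 and 673 in list 2. The rest of a chromosome, below 25% and above 75%, is called its outer parts. Chromosomes 10 and 7 were selected on measured peak density: they had the highest and second-highest ratio of middle over outer parts among the 10 chromosomes in both lists. Density ratios are therefore given below as a description of the choice.

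The peaks came from chromatin immunoprecipitation and sequencing (ChIP-seq) of pericarp, the maternal outer layer of the kernel, at 14 days after pollination. P1-rr plants, in which the pericarp makes P1, gave 2 libraries, and P1-ww plants, a near-isogenic line without P1 expression, gave the other 2, all precipitated with polyclonal antibodies against P1. The P1-rr allele was brought from stock 65-CFS-305, which also carries the P2 gene, into the inbred A619 by backcrossing and selfing, while A619 itself has a non-functional P1 locus and lacks P2. Both genotypes thus share the A619 background, apart from donor DNA that the labels place on chromosome 1 (35 to 66 Mb of build AGPv2) and chromosome 6 (89 to 102 Mb), and they name no donor segment on chromosomes 7 or 10. In list 1 the first P1-rr library is set against the first P1-ww library, and list 2 does the same with the second pair, so a peak marks enrichment in P1-rr over P1-ww within its pair. The labels call the duplicates biological. The lists hold no reads, so depth is unknown. Besides its position a peak has a score, which is the authors' own.

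P1 is an R2R3-MYB transcription factor that switches on genes of flavonoid synthesis, and it is known for the red phlobaphene pigments of the pericarp and cob. Maize chromosomes carry most of their genes, and most of their recombination, towards the ends. Their middle parts hold the centromere and the surrounding heterochromatin, which consist largely of retrotransposons and other repeats. Which genome build the lists use is not stated in the labels or the files, so positions are printed as the lists have them, counted from 1. No gene, exon, centromere or base sequence is therefore assigned to any peak.

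The span of peak positions on chromosome 7 reached 176651749, and its middle ran from 44162937 to 132488812. The middle held 11.3 list 1 peaks per Mb (95% exact Poisson interval 10.6 to 12.0), against 8.66 (8.06 to 9.30) in the outer parts. In list 2 the densities were 8.31 per Mb (7.72 to 8.93) in the middle and 5.84 (5.35 to 6.37) in the outer parts. The middle was thus denser in both duplicates, by a ratio of 1.30 in list 1 (exact conditional 95% interval 1.18 to 1.43) and 1.42 in list 2 (1.27 to 1.60).

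The span of chromosome 10 reached 150162572, and the middle ran from 37540643 to 112621929. It held 12.1 list 1 peaks per Mb (11.3 to 12.9), against 9.20 (8.53 to 9.92) in the outer parts. List 2 had 8.96 per Mb (8.30 to 9.67) in the middle and 5.95 (5.41 to 6.53) in the outer parts. This gave a ratio of 1.32 for list 1 (1.19 to 1.45) and of 1.51 for list 2 (1.33 to 1.70), the highest of the 10 chromosomes in each list.

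The same ratio on the other 8 chromosomes lay between 1.05 and 1.24 in list 1 (median 1.15) and between 1.08 and 1.36 in list 2 (median 1.18). Chromosome 6 came next after chromosomes 7 and 10 in list 1, with 1.24 (1.12 to 1.37), and chromosome 8 in list 2, with 1.36 (1.21 to 1.53). Their intervals overlap those of chromosomes 7 and 10, so the order of the leading chromosomes was not resolved beyond counting error.

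**Figure D1:**
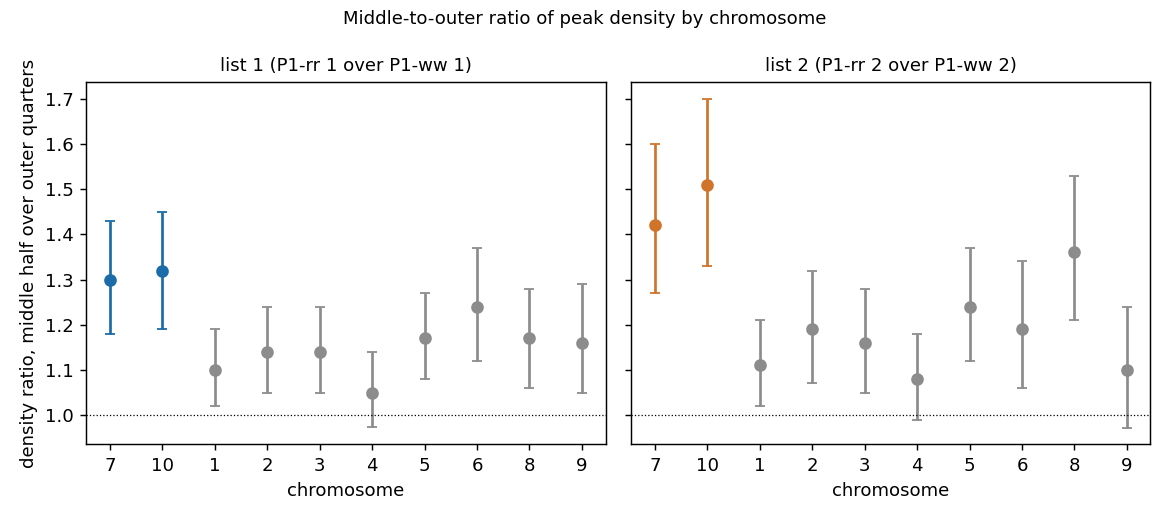
Ratio of peak density (peaks per Mb), middle over outer parts, for each chromosome (x axis) in list 1 (left panel) and list 2 (right panel). Points are ratios, bars are exact conditional 95% intervals for counting error, the dotted line is a ratio of 1, and the coloured points of chromosomes 7 and 10, at 1.30 and 1.32 in list 1 and 1.42 and 1.51 in list 2, are above the grey points of the other 8 chromosomes.

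A high ratio can come from a dense middle or from sparse ends, and both were seen, sparse ends mainly in list 2. The middle of chromosome 10 was the densest of the 10 chromosome middles in both lists, and that of chromosome 7 the third densest in both. Second came chromosome 5 in list 1, with 11.4 per Mb (10.8 to 12.0), and chromosome 4 in list 2, with 8.58 (8.07 to 9.12). Their intervals overlap those of chromosomes 10 and 7. Set against the pooled middles of the other 8 chromosomes, which had 10.5 peaks per Mb in list 1 (10.2 to 10.7) and 7.64 in list 2 (7.46 to 7.83), the middle of chromosome 10 was denser by a ratio of 1.16 in list 1 (1.08 to 1.24) and 1.17 in list 2 (1.08 to 1.27). The middle of chromosome 7 exceeded the same pool by 1.08 (1.01 to 1.15) in list 1 and by 1.09 (1.01 to 1.17) in list 2, but among peaks at or above the median score the intervals included 1, with 1.06 (0.970 to 1.16) in list 1 and 1.03 (0.918 to 1.15) in list 2. In list 2 the outer parts of chromosome 7 were the sparsest of all 10 chromosomes, and those of chromosome 10 the second sparsest. In list 1 the outer parts of chromosome 7 were the third sparsest, whereas those of chromosome 10 were the third densest. That rank of chromosome 10 was an average density: its 9.20 per Mb equalled the pooled outer parts of the other 8 chromosomes, also 9.20. Chromosome 7, at 8.66, was below this pool with an overlapping interval. In list 2 the pool held 6.54 (6.37 to 6.72), above the 5.84 and 5.95 of chromosomes 7 and 10, with intervals that meet or overlap. Intervals of neighbouring outer ranks overlap in both lists, so their order was not resolved.

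The intervals treat peaks as independent, and the peaks were more uneven than that. Counts in the 87 complete 1 Mb windows of the middle of chromosome 7 had a mean of 11.3 and a variance of 25.0 in list 1, and a mean of 8.30 and a variance of 16.9 in list 2. In the 74 windows of chromosome 10 the mean was 12.1 and the variance 24.8 in list 1, with 8.93 and 18.9 in list 2. The variance was thus 2.04 to 2.22 times the mean, and all Poisson and conditional intervals given here are too narrow. No test was made of the differences between parts of a chromosome, because the lists hold 1 value per peak and none per library.

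Within the middle the peaks were not spread evenly, and the duplicates shared some of the pattern. Each chromosome was divided into 20 equal bins, of which 10 make up the middle. The bin from 50% to 55% of the span of chromosome 7 was the sparsest of the middle in both lists, with 8.83 peaks per Mb (6.98 to 11.0) in list 1 and 5.09 (3.72 to 6.82) in list 2. The densest bin was at 60% to 65% in list 1, with 13.4 per Mb (11.1 to 16.0), and at 40% to 45% in list 2, with 10.5 (8.50 to 12.9). On both sides of this trough density was higher. List 1 held 11.3 to 13.4 per Mb in the bins from 30% to 50% and from 60% to 75%. Dense bins were fewer in list 2, with 10.1 to 10.5 per Mb from 35% to 50% and 8.60 and 8.94 from 60% to 70%, and its bin from 70% to 75% held 7.70. List 2 was denser nearer the start of the chromosome: the part from 25% to 50% held 9.28 peaks per Mb (8.41 to 10.2) and the part from 50% to 75% held 7.34 (6.56 to 8.18). In list 1 these parts were alike within counting error, at 11.4 (10.4 to 12.5) and 11.1 (10.2 to 12.1).

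Chromosome 10 was dense next to the lower border of its middle and had a second dense bin near the upper one. In list 1 its densest bin was at 25% to 30%, with 132 peaks or 17.6 per Mb (14.7 to 20.8). This was the highest value of any of the 20 bins on either chromosome in either list. Bins as dense occurred elsewhere, with 17.9 per Mb (15.6 to 20.4) at 45% to 50% of chromosome 4 in list 1. On chromosome 10 the bin just outside the middle, from 20% to 25%, held 14.4 per Mb (11.8 to 17.4) in list 1, so the dense block crossed the border. In list 2 the bins from 25% to 30% and from 30% to 35% held 11.5 (9.16 to 14.1) and 11.7 (9.40 to 14.4) per Mb. The densest list 2 bin was at 65% to 70%, with 12.4 per Mb (10.00 to 15.2), and the same bin was the second densest of the middle in list 1, with 13.6 (11.1 to 16.5). The bin next to the upper border, from 70% to 75%, was the sparsest of the middle in list 1, with 10.1 per Mb (7.98 to 12.7), and held 8.92 (6.92 to 11.3) in list 2. Just past that border, from 75% to 80%, list 1 had its lowest density on the chromosome, 5.99 per Mb (4.37 to 8.02), where list 2 had 4.93 (3.47 to 6.79). The interior of the middle was sparser in list 2, with 5.86 per Mb (4.26 to 7.87) at 40% to 45%.

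**Figure D2:**
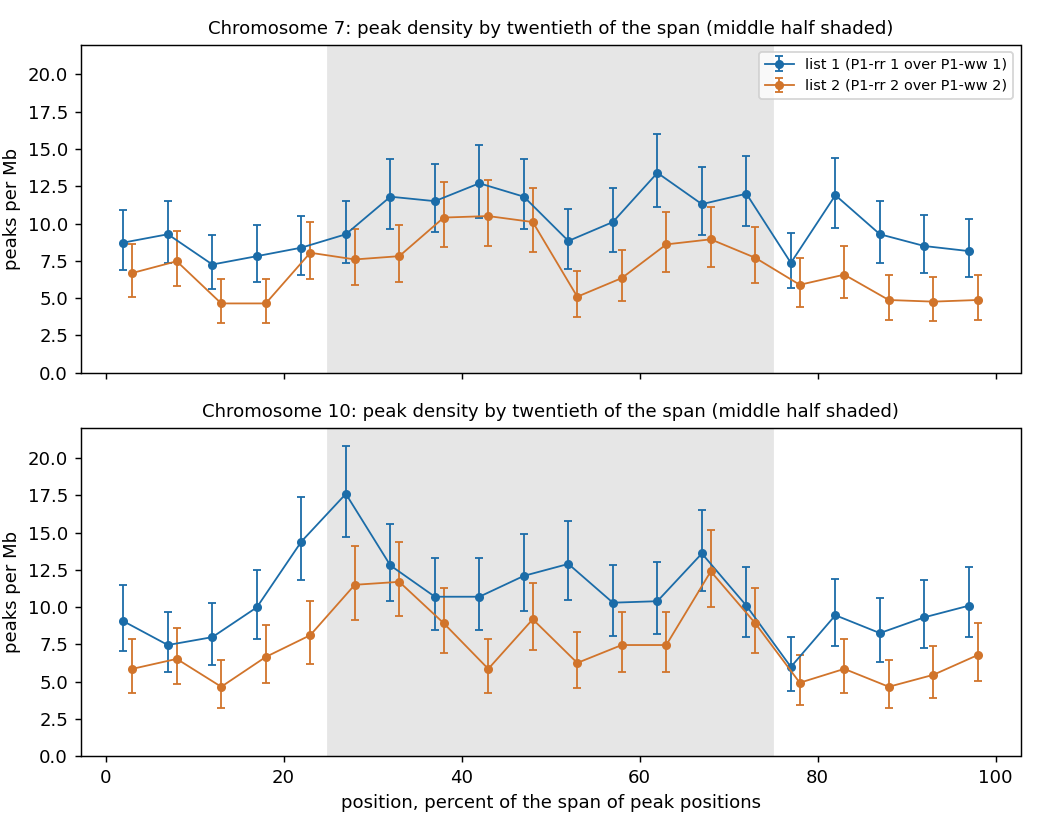
Peak density in peaks per Mb (y axis) in 20 equal bins of the span (x axis, percent of the span) on chromosome 7 (upper panel) and chromosome 10 (lower panel), list 1 in blue and list 2 in orange, with exact Poisson 95% intervals as bars and the middle shaded. The trough at 50% to 55% of chromosome 7 and the dense bins at 25% to 30% and 65% to 70% of chromosome 10 are seen in both lists.

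Nearly every bin of the middle was denser than the median outer bin. On both chromosomes this held for 10 of 10 bins in list 1 and 9 of 10 in list 2. The reverse was rare: 1 of the 10 outer bins of each chromosome exceeded the median middle bin in list 1, and 0 did in list 2. The bins divide the same peaks whose density chose chromosomes 7 and 10, so these counts largely restate that choice. Counts of the lists per 1 Mb window were moderately correlated, with Pearson's r of 0.52 and Spearman's rho of 0.48 over the 87 middle windows of chromosome 7, and 0.42 for both over the 74 middle windows of chromosome 10. In the outer parts r was 0.40 on chromosome 7 and 0.57 on chromosome 10. All windows come from the same pairs of libraries, and these correlations describe the lists only.

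The densest 1 Mb windows were mostly not the same in both lists. The window from 122 to 123 Mb of chromosome 7 held the most list 1 peaks, 23, beside 10 of list 2. For list 2 the most was 19, reached from 87 to 88 Mb, beside 18 of list 1, and from 112 to 113 Mb, beside 19 of list 1. The most list 1 peaks in a window of chromosome 10 were 25, from 43 to 44 Mb, beside 12 of list 2. The highest list 2 count there was 18, reached from 45 to 46, 47 to 48 and 72 to 73 Mb, beside 11, 9 and 21 list 1 peaks. The windows at 87 to 88 and 112 to 113 Mb of chromosome 7 and at 72 to 73 Mb of chromosome 10 were therefore dense in both duplicates. So were 69 to 70 Mb of chromosome 7, with 20 list 1 and 17 list 2 peaks, and 41 to 42 Mb of chromosome 10, with 23 and 17. Against these stand stretches with no peak. The longest in list 1 on chromosome 10 ran from 61262509 to 61861656, 599 kb, and lay wholly inside the longest one of list 2, from 60767370 to 62092911 (1326 kb), so that neither list had a peak there. The longest stretches of chromosome 7 were 90805122 to 91931132 in list 1 (1126 kb, with 4 list 2 peaks inside) and 91706015 to 92812339 in list 2 (1106 kb, with 14 list 1 peaks inside). They overlapped by 225 kb, at about 52.0% of the span and thus in the trough described above.

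Spacing followed density. The median distance between neighbouring peak centres of chromosome 7 was 51.2 kb in the middle (interquartile range 18.4 to 116), against 76.3 kb (30.7 to 154) in the outer parts, in list 1. List 2 gave 66.8 kb (26.3 to 154) in the middle and 105 kb (33.9 to 230.4) in the outer parts. The medians of chromosome 10 were 50.9 kb in the middle and 65.1 kb in the outer parts in list 1, and 62.6 kb in the middle and 96.5 kb in the outer parts in list 2. Close neighbours, within 1000 bp, were few everywhere. In the middle they made up 2.01% of spacings in list 1 (95% Wilson interval 1.31 to 3.09) and 2.32% in list 2 (1.45 to 3.68) on chromosome 7, and 1.54% (0.921 to 2.57) and 0.893% (0.410 to 1.93) on chromosome 10. The outer parts had 1.18% (0.622 to 2.23) in list 1 and 0.973% (0.416 to 2.26) in list 2 on chromosome 7, and 2.18% (1.32 to 3.56) and 1.12% (0.481 to 2.60) on chromosome 10. All these intervals overlap. Counting such neighbours once gave density ratios of 1.29 in list 1 and 1.40 in list 2 on chromosome 7, and 1.32 and 1.51 on chromosome 10.

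Peak width did not enter the choice of the regions. In list 2 it differed between the middle and the outer parts of chromosome 7, in the same direction as on the other 8 chromosomes pooled. A width of 200 bp is the smallest in either list. In list 2, 24.9% of the peaks in the middle of chromosome 7 had this width (95% Wilson interval 21.9 to 28.2), against 33.5% (29.6 to 37.7) in the outer parts, a difference of -8.60 percentage points (Newcombe 95% interval -13.7 to -3.49). Median widths were 370.0 bp in the middle (interquartile range 201 to 499.5) and 298 bp (200 to 474) in the outer parts. The middles of the other 8 chromosomes had 28.7% narrow peaks (27.6 to 29.8) and a median of 344 bp. Their outer parts had 31.5% (30.3 to 32.7) and 314 bp, and the whole list had 29.8%. On chromosome 10 the share was 29.3% (26.0 to 32.8) in the middle and 32.9% (28.7 to 37.4) in the outer parts, and the difference of -3.61 points (-9.19 to 1.88) was within counting error. In list 1 nearly all peaks were 200 bp wide in every part, 94.3% and 95.9% in the middles of chromosomes 7 and 10 and 95.4% and 95.7% in their outer parts. There the widths hold little information.

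The density ratios of list 2 were also given by width. Peaks wider than 200 bp had a ratio of middle over outer parts of 1.61 on chromosome 7 (1.40 to 1.84), with 551 peaks in the middle and 343 in the outer parts. For the 200 bp peaks of list 2 on chromosome 7 the ratio was 1.06 (0.855 to 1.31), with 183 and 173 peaks in these parts. For chromosome 10 the ratios were 1.59 (1.37 to 1.84) for the wider and 1.34 (1.08 to 1.67) for the 200 bp peaks. The other 8 chromosomes together gave 1.22 (1.16 to 1.27) and 1.06 (0.997 to 1.14). The 200 bp peaks of list 1 had ratios of 1.28 (1.17 to 1.42) on chromosome 7 and 1.32 (1.19 to 1.46) on chromosome 10. On chromosome 7 the interval of this ratio excluded 1 for the 200 bp peaks of list 1 and included it for those of list 2, and the difference between the lists was not tested.

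**Figure D3:**
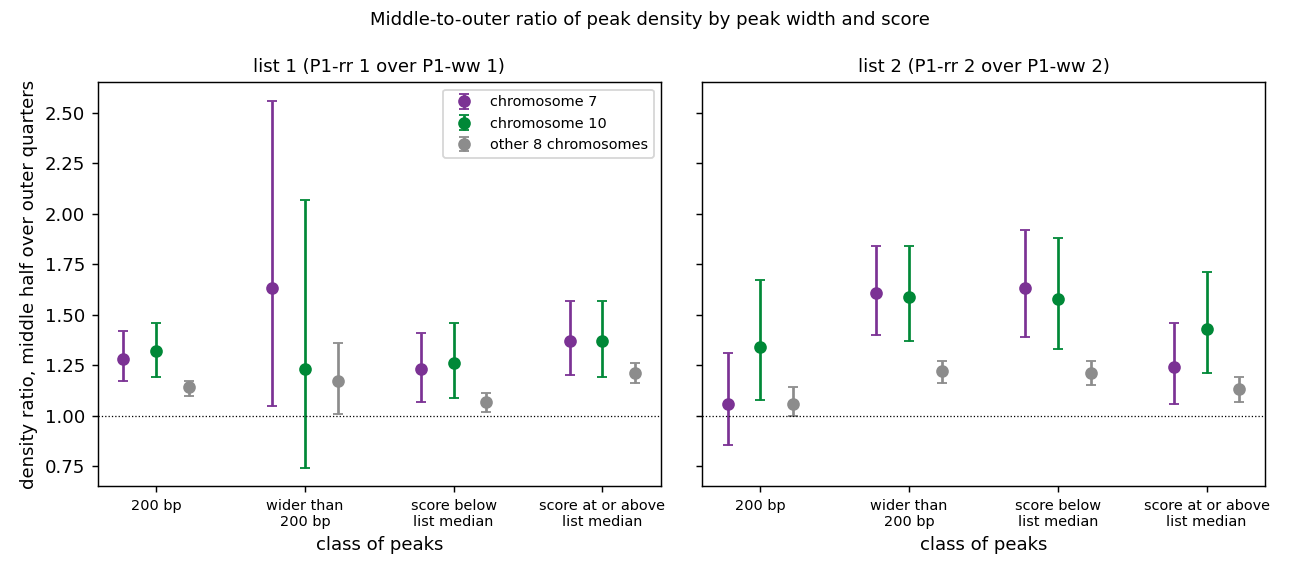
Ratio of peak density, middle over outer parts (y axis), for 4 classes of peaks (x axis) on chromosome 7 (purple), chromosome 10 (green) and the other 8 chromosomes pooled (grey), in list 1 (left panel) and list 2 (right panel). Points are ratios with exact conditional 95% intervals, the dotted line is a ratio of 1, and the purple point of the 200 bp peaks of list 2, at 1.06, is the lowest of the points of chromosomes 7 and 10.

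Scores were compared within a list only. In list 1 the median score was 282.63 in the middle and in the outer parts of both chromosomes, which is also the median of the whole list and one of its most repeated values. High scores had a larger share of the middle of chromosome 7. The highest-scoring 10% of list 1, from a score of 2078.06 upwards and 10.3% of the list with ties, held 121 peaks or 12.2% (10.3 to 14.3) of its middle, against 66 peaks or 8.63% (6.84 to 10.8) of its outer parts, with intervals that overlap narrowly. Per Mb these high-scoring peaks had a ratio of middle over outer parts of 1.83 (1.35 to 2.51) on chromosome 7, 1.35 (0.977 to 1.87) on chromosome 10 and 1.33 (1.21 to 1.46) on the other 8. On chromosome 10 these were 93 peaks or 10.2% (8.43 to 12.4) in the middle and 69 peaks or 9.99% (7.97 to 12.4) in the outer parts. Middles of the other 8 chromosomes had 11.0% (10.4 to 11.6) and their outer parts 9.41% (8.79 to 10.1). The score of 3100, which many list 1 peaks have in common, belonged to 55 peaks or 5.53% in the middle of chromosome 7 and 32 or 4.18% in its outer parts, and to 42 or 4.62% and 28 or 4.05% in these parts of chromosome 10.

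In list 2 the order of these shares on chromosome 7 was the opposite, and the ratio per Mb of the class was 0.964 (0.648 to 1.43), beside 1.22 (0.826 to 1.80) on chromosome 10 and 1.11 (0.997 to 1.25) on the other 8. Its highest-scoring 10%, from 168.85 upwards and 10.2% of the list, held 53 peaks or 7.22% (5.56 to 9.32) of the middle of chromosome 7, against 55 peaks or 10.7% (8.28 to 13.6) of the outer parts, again with overlapping intervals. Chromosome 10 had shares of 9.21% (7.25 to 11.6) in the middle and 11.4% (8.79 to 14.7) in the outer parts. The other 8 chromosomes had 10.1% (9.44 to 10.9) in their middles and 10.6% (9.85 to 11.5) in their outer parts. The order in list 2 was thus the same on all of these, with overlapping intervals. The median list 2 score on chromosome 7 was 65.82 (interquartile range 50.36 to 111.06) in the middle and 72.96 (52.00 to 116.93) in the outer parts. On chromosome 10 it was 69.70 (50.13 to 111.06) in the middle and 70.05 (51.96 to 116.93) in the outer parts. Width moved with these scores: in the middle of chromosome 7 the 200 bp peaks of list 2 had a median score of 116.93 and the wider ones 56.46. Among the 200 bp peaks alone the median was 116.93 in the middle of chromosome 7 and 116.93 in its outer parts, which is the most repeated score of list 2. The wider peaks had a median of 56.46 in the middle and 59.50 in the outer parts.

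The density ratios by score ran in opposite order in the lists, on chromosomes 7 and 10 with overlapping intervals and on the other 8 chromosomes alike. In list 1 the ratio of middle over outer parts was 1.37 for peaks at or above the median score, on chromosome 7 (1.20 to 1.57) and on chromosome 10 (1.19 to 1.57), and 1.23 (1.07 to 1.41) and 1.26 (1.09 to 1.46) below it. In list 2 the peaks at or above the median had ratios of 1.24 (1.06 to 1.46) on chromosome 7 and 1.43 (1.21 to 1.71) on chromosome 10, and the peaks below it 1.63 (1.39 to 1.92) and 1.58 (1.33 to 1.88). For the other 8 chromosomes pooled the order was the same: 1.21 (1.16 to 1.26) at or above the median and 1.07 (1.02 to 1.11) below it in list 1, and 1.13 (1.07 to 1.19) and 1.21 (1.15 to 1.27) in list 2. The classes by score and by width divide the same peaks whose density chose chromosomes 7 and 10, so a ratio above 1 in a class restates that choice.

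The highest list 2 score of the middles, 1287.01, belonged to a 217 bp peak at 55158564 to 55158780 of chromosome 10, which ranked sixth in the whole list. It was followed on that chromosome by peaks at 76442052 to 76442251 (score 681.02) and 103887514 to 103887713 (score 636.33). On chromosome 7 the list 2 peaks with the highest scores were at 60000161 to 60000360 (444.88), 82999005 to 82999204 (420.86) and 101068335 to 101068534 (404.30). All but the first of these 6 peaks were 200 bp wide. In list 1 ties leave 27 peaks with a score of their own in the middle of chromosome 7 and 15 in that of chromosome 10. The highest of these on chromosome 7 were at 70505337 to 70505737 (2776.49), 117012256 to 117012455 (2023.74) and 79033459 to 79033665 (1464.06). On chromosome 10 they were at 104292584 to 104292784 (2777.62), 38585858 to 38586346 (1891.98) and 45600656 to 45601343 (1244.72). None of these 12 peaks overlapped a peak of the other list, where the share over all peaks was 2.23% in list 1 and 3.08% in list 2, so a count of 0 says little. Tied list 1 peaks with scores up to 3100 did overlap list 2 peaks: of the highest-scoring 10% of list 1, 4 of 121 in the middle of chromosome 7 and 0 of 93 in that of chromosome 10 were shared.

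The widest peaks of list 2 were not among its highest-scoring ones. In list 2 they were a 1354 bp peak at 66530151 to 66531504 of chromosome 10 with a score of 90.30, and a 1253 bp peak at 131454675 to 131455927 of chromosome 7 with a score of 67.00. The second widest on chromosome 7, of 1155 bp at 126267636 to 126268790, scored 90.77 and overlapped a list 1 peak. The second widest on chromosome 10 measured 1201 bp, at 37748346 to 37749546, with a score of 48.23. In list 1 the widest of chromosome 7 were 700 bp at 53681641 to 53682340 (score 168.02) and 610 bp at 129094923 to 129095532 (score 276.27). On chromosome 10 they were 688 bp at 45600656 to 45601343, named above among the untied peaks (score 1244.72), and 578 bp at 76811656 to 76812233 (score 50.80).

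Sites seen in both duplicates made up a share of the middle of chromosome 7 near that of the whole lists, and a lower share of its outer parts. The middle held 27 list 1 peaks that overlapped a list 2 peak by 1 bp or more, 2.71% of its list 1 peaks (95% Wilson interval 1.87 to 3.92), against 9 peaks or 1.18% (0.620 to 2.22) in the outer parts. Over the whole of list 1 the share was 2.23%. Of the list 2 peaks, 27 or 3.68% (2.54 to 5.30) were shared in the middle and 9 or 1.74% (0.920 to 3.28) in the outer parts, and the whole list had 3.08%. The difference was 1.54 percentage points in list 1 (Newcombe 95% interval 0.196 to 2.87) and 1.93 points in list 2 (0.0216 to 3.75). Both values count the same 27 and 9 pairs, set against the peaks of each list, and are not separate observations. Per Mb the shared regions numbered 0.306 (0.201 to 0.445) in the middle and 0.102 (0.0466 to 0.193) in the outer parts, a ratio of 3.00 (1.37 to 7.25). The lists were both denser there, by the ratios of 1.30 and 1.42 given above, and the part of density in the sharing was not tested. The difference depended on what counted as shared. With an overlap of 50% of both peaks it was 0.211 points in list 1 (-0.611 to 0.963) and 0.236 in list 2 (-0.962 to 1.26). Among peaks at or above the median score of their lists it was 0.0490 (-1.35 to 1.20) and 0.150 (-1.81 to 1.89), and its interval also included 0 for centres within 100 bp and for peaks within 500 bp.

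On chromosome 10 no such difference was seen. Its middle held 20 shared list 1 peaks, 2.20% (1.43 to 3.37), against 17 or 2.46% (1.54 to 3.90) in the outer parts. In list 2 the shares were 2.97% (1.93 to 4.55) in the middle and 3.80% (2.39 to 6.01) in the outer parts. The ratio per Mb was 1.18 (0.585 to 2.39). Its interval includes 1 and overlaps that of chromosome 7, and the difference between the chromosomes was not tested. The middles of the other 8 chromosomes, with 2.39% in list 1 (2.09 to 2.72) and 3.22% in list 2 (2.82 to 3.67), lay within the intervals of both middles. The outer parts of these 8 chromosomes had 2.05% (1.76 to 2.38) and 2.88% (2.47 to 3.35), above the 1.18% and 1.74% in the outer parts of chromosome 7 but with overlapping intervals.

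**Figure D4:**
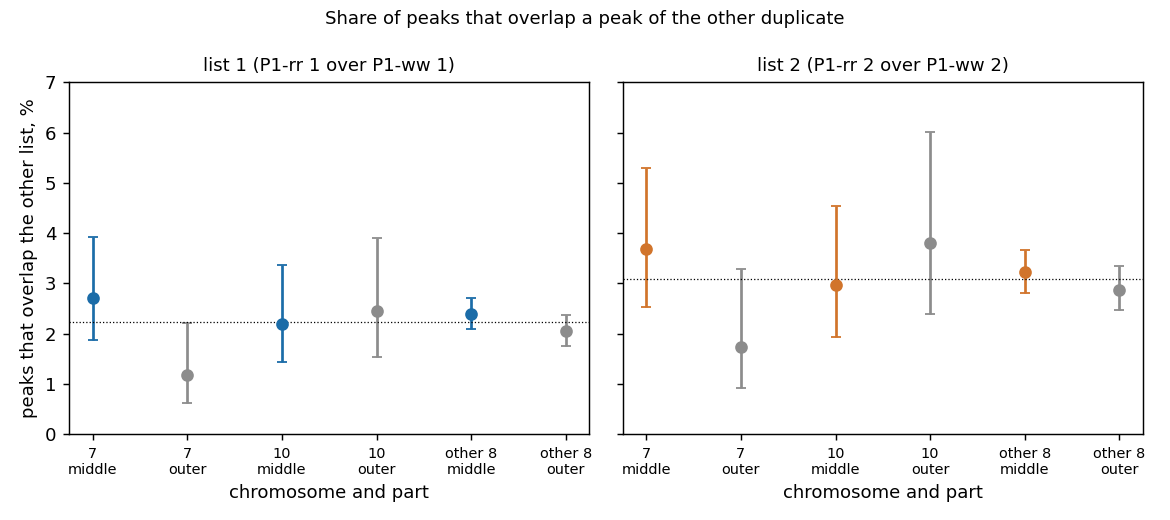
Share of peaks that overlap a peak of the other list, in percent (y axis), by chromosome and part (x axis), for list 1 (left panel) and list 2 (right panel). Coloured points are middles and grey points outer parts, bars are Wilson 95% intervals and the dotted line is the share in the whole list, 2.23% in list 1 and 3.08% in list 2, with the outer parts of chromosome 7 the lowest of the points in both panels.

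Every one of the 47 shared regions paired 1 peak of each list, and all 47 list 1 peaks were 200 bp wide. The regions measured 218 to 1213 bp (median 512), and the peaks overlapped by 2 to 200 bp (median 178). An overlap of 50% of both peaks was reached in 6 of 27 regions on chromosome 7 and 4 of 20 on chromosome 10, against 50 of 216 pairs in the middles of the other 8 chromosomes. The shared list 2 peaks of the middles were mostly wide, with a median of 475 bp, and 8 of the 47 were 200 bp. In the middles of the other 8 chromosomes the median was 485 bp, and 26 of 213 were 200 bp. Of all list 2 peaks in the middles of chromosomes 7 and 10, 24.9% and 29.3% were 200 bp. List 2 scores of the 47 regions ran from 41.00 to 229.03, with medians of 59.26 on chromosome 7 and 52.78 on chromosome 10. All list 2 peaks of these middles had medians of 65.82 and 69.70, and those wider than 200 bp had 56.46 and 55.59. Of the shared regions, 4 were in the highest-scoring 10% of list 1, 2 in that of list 2 and 0 in both, beside 18, 14 and 2 of 216 pairs in the middles of the other 8 chromosomes. With counts this small, 0 in both says little. Across regions the scores of the lists had a Spearman's rho of -0.14 on chromosome 7 (27 regions) and -0.27 on chromosome 10 (20 regions), a description over sites that share libraries and are not replicates.

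**Figure D5:**
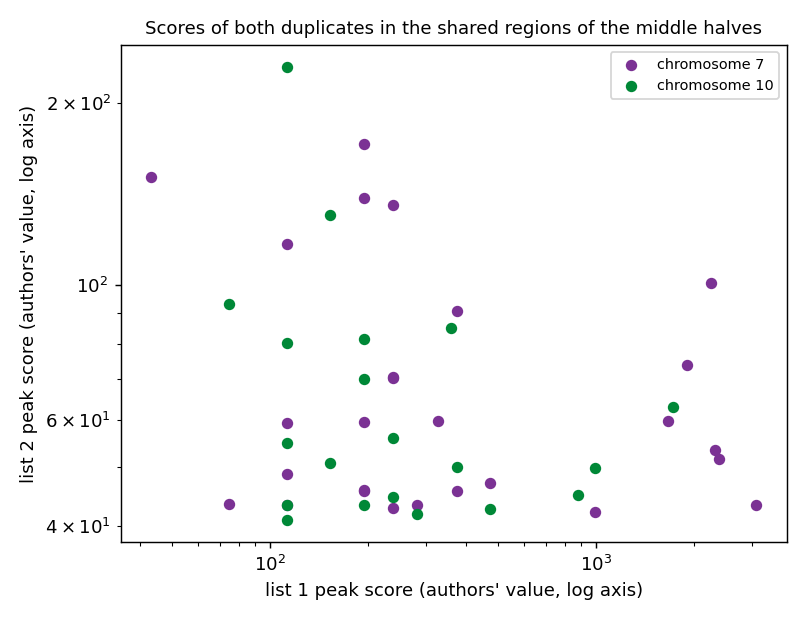
Score of the list 2 peak (y axis, log scale) against the score of the list 1 peak (x axis, log scale) in the 27 shared regions of the middle of chromosome 7 (purple) and the 20 of chromosome 10 (green), 1 point per region. The highest list 2 score, 229.03, is paired with a list 1 score of 112.54, and the highest list 1 score, 3100, with a list 2 score of 43.32.

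Of the shared regions on chromosome 7, that with the best mean of the ranks in both lists was at positions 111496221 to 111496517, with scores of 2258.12 in list 1 and 100.66 in list 2 and an overlap of 105 bp. It was followed by 67571945 to 67572175, with scores of 1899.93 and 73.76 and 169 bp of overlap between peaks of 200 bp each. The third, at 71169538 to 71169790 (1665.67 and 59.76), had an overlap of 147 bp. At 128789992 to 128790383 (2318.54 and 53.33) the centres of the peaks were 17.0 bp apart, and the list 1 peak lay wholly inside the list 2 peak. The next were at 83449325 to 83450027 (2379.16 and 51.63), 126267578 to 126268790 (375.29 and 90.77), 93264142 to 93264823 (237.92 and 135.74) and 66545709 to 66546204 (3100 and 43.32). Of these 8 regions, those ranked 1 to 4 overlapped by 50% of both peaks and the other 4 did not.

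The best ranked shared region of chromosome 10 was at 91262032 to 91262700, with scores of 1723.86 in list 1 and 62.84 in list 2, where the list 1 peak lay inside a list 2 peak of 669 bp. At 101691302 to 101691565 (358.04 and 84.93) peaks of 200 bp overlapped by 136 bp. These were followed by 88530457 to 88530931 (990.06 and 49.92), 74111236 to 74111804 (882.38 and 45.01) and 87938517 to 87938785 (152.60 and 130.38), the last with an overlap of 196 bp. The list 2 peak with the highest score of the 47, 229.03, was at 38949168 to 38949490, where list 1 scored 112.54 and the peaks overlapped by 77 bp. The remaining regions of the best 8 were at 38579427 to 38579824 (194.50 and 81.36) and 89821156 to 89822109 (375.29 and 50.12). Along chromosome 10 the dense bin at 25% to 30% of the span held 7 of the 20 shared regions, beside 132 list 1 peaks in all. The bins from 30% to 35%, 35% to 40% and 50% to 55% held 0, beside 96, 80 and 97 list 1 peaks. On chromosome 7 every bin of the middle held at least 1 of the 27, and the bin from 65% to 70% held 5, beside 100 list 1 peaks. The share over all list 1 peaks was 2.23%, and counts this small do not show where shared regions gather.

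The borders of the middle are set by position and not by any feature of the peaks. In list 1 the first peak inside the lower border of chromosome 7, at 25.01% of the span, scored 112.54 and the last one before it, at 24.97%, scored 152.60. At the upper border of chromosome 10 in list 2, the last peak inside, at 74.96%, was 416 bp wide with a score of 79.19, and the first outside, at 75.29%, was 399 bp wide with a score of 51.96. Over all 8 borders, list 1 peaks scored 112.54 to 471.53 just inside and 74.80 to 328.46 just outside, and list 2 peaks 41.00 to 84.14 just inside and 48.67 to 142.17 just outside.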

How the data were processed

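ChIP-seq peaks of P1 in pericarp were analysed as 2 deposited lists, 1 for each pair of a P1-rr and a P1-ww library. Per the labels, the tissue was fixed and sonicated, and the duplicates were biological. CASAVA version 1.4 and Bowtie are named in the submitters' processing notes, and the peaks carry MACS names in the deposited lists. The score is a value per peak as deposited by the authors, with a scale not given in the sources used here, nor is the genome build, the MACS version or the treatment of duplicate reads. The remaining deposited columns used are the start and end of each peak. The lists hold whole peaks and no reads, so depth could not be examined. Every value column was used, and 0 were left unmapped.

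The span of a chromosome ran to the largest peak end in either list, and a peak belonged to the part that held its midpoint. Starts are printed counted from 1. A peak was shared if it overlapped a peak of the other list by 1 bp or more. Intervals (exact Poisson, exact conditional for ratios, Wilson and Newcombe for shares, all at 95%) came from scipy 1.17.1 and cover counting error only. Lists were read with pandas 2.3.3 and numpy 2.4.6 in Python 3.11.15, and figures drawn with matplotlib 3.10.9. Ratio intervals and overlap counts were tested on simulated data, and bedtools gave the same overlap counts. Simulated peaks for the ratio intervals were placed independently, so that check does not cover the unevenness described above. No significance test was made. Alternatives covered the borders, the span, width, score, close neighbours and the definition of overlap. The regions named were the 8 best shared regions per chromosome by mean rank of score, and the widest peaks of each list. The highest-scoring peaks were named over all list 2 peaks, but in list 1 only among peaks whose score was not tied. Also named were the densest 1 Mb windows, the longest stretches without a peak and the peaks at the borders. The members and the lists of named regions were chosen with earlier results of these data known.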

Additional observations from a re-analysis of the deposited data

How the results depend on the processing

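A total of 76 alternative values was computed, of which 68 lay within the counting interval of the value reported. The density ratio of middle over outer parts was above 1 in 32 of 32 alternatives, from 1.06 to 1.63. Chromosomes 7 and 10 were chosen for this ratio, and the alternatives use the same peaks, so the count restates the choice. On the other 8 chromosomes the ratio was above 1 as well, with a lowest value of 1.05 in list 1 and 1.08 in list 2. The ratio against the middles of the other 8 chromosomes was above 1 in 12 of 12 alternatives, from 1.03 to 1.20. The middle density in this ratio also entered the choice, and the alternatives use the same peaks, so this count largely restates the choice too. For chromosome 7 the interval of this second ratio included 1 with peaks at or above the median score, in list 1 (1.06, 0.970 to 1.16) and list 2 (1.03, 0.918 to 1.15). For peaks wider than 200 bp only, the ratio of middle over outer parts on chromosome 7 moved to 1.63 in list 1. This value rests on 57 and 35 peaks, with a wide interval of 1.05 to 2.56. In list 2 the ratio moved to 1.61 (1.40 to 1.84) for the wider peaks, 1.06 (0.855 to 1.31) for 200 bp peaks only and 1.24 for peaks at or above the median score. The wider list 1 peaks of chromosome 10 gave 1.23 (0.741 to 2.07). The intervals of 1.06 and 1.23 include 1. The ratio of chromosome 10 moved to 1.17 in list 1 and 1.30 in list 2 with borders at 30% and 70%, which put the dense bin at 25% to 30% into the outer part. On chromosome 7 the excess of shared list 1 peaks in the middle moved to 0.0490 percentage points (-1.35 to 1.20) with peaks at or above the median score of each list, and the median score difference of list 2 to 0 within 200 bp peaks. The cause was not tested for the changes by score and width. Leaving out a pair of replicates leaves the other list, whose values are given apart, and no share of overlapping peaks. No paired analysis was possible because the deposited peaks come from the pairs themselves, with no value for a single library. With 9 to 27 shared regions per part, modest differences in sharing cannot be seen.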
